A study of Mus musculus with 69 samples.

Results

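The genes described here encode the receptor for ciliary neurotrophic factor (CNTF) and its partners: Cntfr, Lifr, Il6st, Osmr and the ligand gene Cntf. They were taken by name from a table of 42279 genes and a table of 253821 exons, in which 4 of the 5 were found, with 72 exons between them. No row under the name Cntf was used, so the ligand itself is not analysed here. The genes were chosen by a measured difference, the share of each exon in its gene's counts in HDID1 against HSNpt mice, with attention to the first exon of Cntfr. Differences between the lines in these genes are therefore given as a description without a test. What could be tested are sex, the line by sex interaction and blood ethanol within a line.

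CNTF is bound by the CNTF receptor alpha chain, the product of Cntfr, which is tethered to the membrane and has no signalling tail of its own. The alpha chain brings together the LIF receptor (Lifr) and gp130 (Il6st), whose tails carry JAK kinases and pass the signal on mainly through STAT3. The same LIF receptor and gp130 pair serves leukaemia inhibitory factor, and the oncostatin M receptor (Osmr) pairs with gp130 for oncostatin M. In the adult brain CNTF is known as a survival factor for neurons and as a signal that activates astrocytes.

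The libraries, 1 per mouse, came from ventral striatum dissected by hand out of a 2 mm brain slice, in 35 HDID1 mice (17 females, 18 males) and 34 HSNpt mice (17 females, 17 males). HDID1 was bred over generations for high ethanol levels in blood in the drinking in the dark test, and HSNpt is an unselected heterogeneous stock. All mice had been through the same 4-day trial with a bottle of 20% ethanol, 2 h a day and 4 h on the final day, and tissue was taken 3 weeks later. Each line is 1 breeding population, so selection cannot be told apart from any other difference between the lines. The sources used here do not give ages, and nothing in them says which mice shared a litter.

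Libraries held between 14077983 and 35257422 counts, and 1 count was worth 0.0710 CPM, the count scaled to library size, in the smallest. Of 12 listed spiny neuron markers of the striatum 11 were found, and 6 were lower and 0 higher in HDID1 by edgeR. They summed to 767 to 10021 CPM (median 6733) in HDID1 and 2271 to 12852 CPM (median 8282) in HSNpt. Hypothalamus markers, of which 4 of 7 tested were higher in HDID1, summed to 6.32 to 1703 CPM (median 107) in HDID1 and 4.15 to 466 CPM (median 39) in HSNpt. By limits on the spiny neuron, hypothalamus and choroid plexus scores, 5 HDID1 libraries and 1 HSNpt library stood apart. The share of counts in the last exons of genes was far above the rest in 6 HDID1 and 2 HSNpt libraries, as where reads are drawn toward the 3′ end. This share was taken over genes with at least 5 listed exons. By either measure 10 HDID1 and 3 HSNpt libraries stood apart, and the exon 1 share is given with and without them.

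Cntfr lies on mouse chromosome 4 at 41657498-41697089 (build mm10, minus strand), and the exon table lists 13 exons for it. Of these, 3 had a median share under 0.1% in both lines and the other 10 are numbered here from the 5′ end. Exon 1 (135 bases, just downstream of the start at chr4:41695453) is the untranslated first exon of 2 of the 6 Cntfr transcripts in GENCODE M21, Cntfr-201 and Cntfr-203. Exon 2 (chr4:41686797-41686886, 90 bases) is also untranslated, is part of 5 transcripts, and begins after an intron of 8424 bases. Exon 3 (chr4:41675020-41675104, 85 bases) holds the first coding bases, another 11692 bases further on.

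RefSeq (GRCm38.p6, the assembly of mm10) lists 6 start sites for Cntfr. The 250 bases before 2 of them are shown because they flank the exons that differ in share between the lines: the window ahead of exon 1, and the window ahead of a start that lies in the intron between exons 1 and 2. Both are written 5′ to 3′ on the minus strand, with every CG pair in capitals.
Start at exon 1, chr4:41695454-41695703: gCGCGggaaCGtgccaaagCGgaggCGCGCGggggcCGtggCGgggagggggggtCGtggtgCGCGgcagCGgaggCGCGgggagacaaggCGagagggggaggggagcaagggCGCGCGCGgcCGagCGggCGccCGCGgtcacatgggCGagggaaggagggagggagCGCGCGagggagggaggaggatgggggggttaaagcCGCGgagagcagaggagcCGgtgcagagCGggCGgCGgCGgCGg
Start between exons 1 and 2, chr4:41689181-41689430: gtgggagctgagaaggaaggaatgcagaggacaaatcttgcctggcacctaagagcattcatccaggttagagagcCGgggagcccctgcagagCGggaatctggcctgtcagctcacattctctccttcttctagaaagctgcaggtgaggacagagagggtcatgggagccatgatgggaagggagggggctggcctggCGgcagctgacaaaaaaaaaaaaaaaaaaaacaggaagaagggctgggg
The first window is 78.4% G and C and holds 37 CG pairs, more than 97.8% of the 32851 promoter windows of the same length in the mouse table, whose medians are 52.4% and 6. The second is 54.4% G and C and holds 3 CG pairs, more than 29% of windows. Both strands of each window were searched for 4 motifs. The TATA box (TATAAA) was found in neither, and 12.4% of all windows hold it. The same was true of the CCAAT box (33.8% of all windows) and of the spaced palindrome that STAT proteins bind (TTCNNNGAA, 7.02% of all windows). The core of the GC box (GGGCGG) was found 1 time in the first window and not in the second, and 32.7% of all windows hold it. These are matches of letters only. No exon that begins at the second start is among the 13 of the exon table.

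Exon 1 carried far fewer Cntfr counts in HDID1 mice. It held 0 to 10 counts per mouse (median 3, 125 in all) in the 35 HDID1 mice and 5 to 58 counts (median 29, 928 in all) in the 34 HSNpt mice. As a share of all Cntfr counts of the same mouse this was 0% to 0.609% (median 0.235%) in HDID1 and 0.346% to 3.86% (median 1.81%) in HSNpt. Means were 0.227% ± 0.124 in HDID1 (SD, n = 35) and 1.73% ± 0.855 in HSNpt (SD, n = 34). In 31 of 34 HSNpt mice the share lay above the highest HDID1 mouse, and the groups met only at their edges. The 3 HSNpt mice inside the HDID1 range were females 9, 10 and 11, at 0.346%, 0.452% and 0.486%, and the nearest outside it was male 3 at 0.616%. A share above 1% was seen in 0 of 35 HDID1 mice and in 27 of 34 HSNpt mice.

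**Figure D1:**
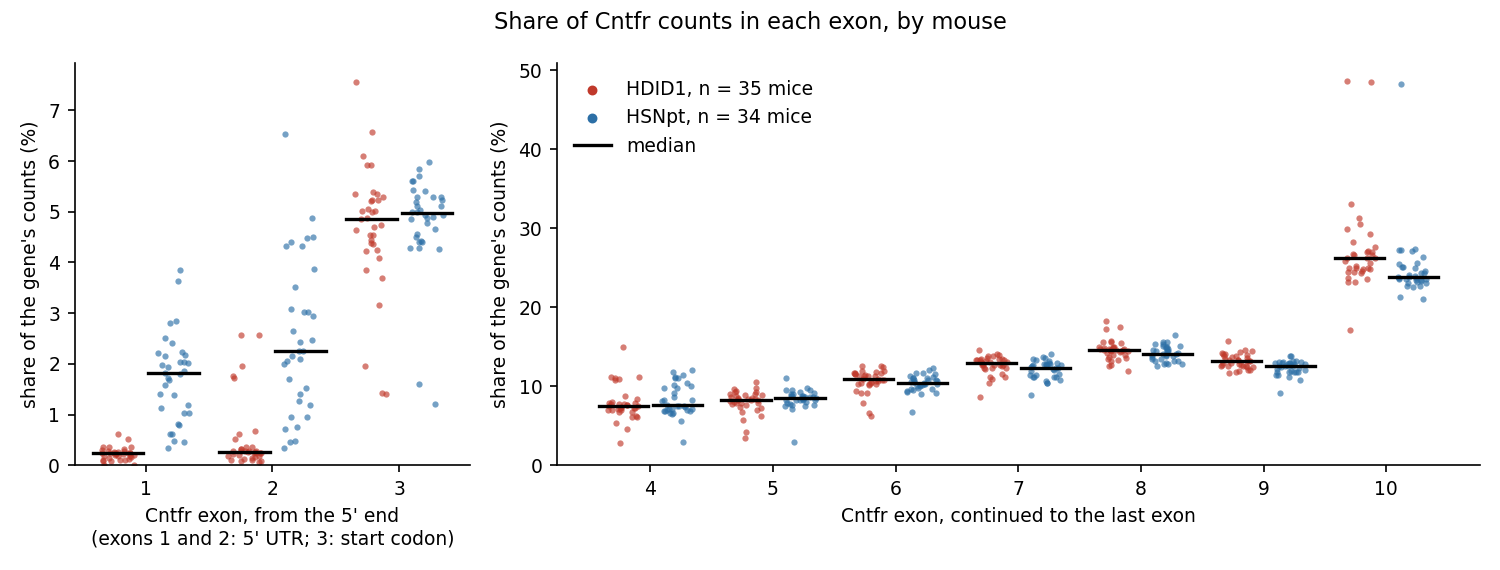
Share of Cntfr counts (percent, vertical axis) in each of the 10 exons with appreciable counts, in 5′ to 3′ order, with 1 point per mouse (HDID1 red, HSNpt blue) and a bar at the median. Exon 1 has medians of 0.235% in HDID1 and 1.81% in HSNpt, and exon 3 has medians of 4.86% in HDID1 and 4.97% in HSNpt.

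The same pattern was present in each sex. Exon 1 took 0% to 0.518% (median 0.209%) of Cntfr counts in HDID1 females and 0.346% to 2.51% (median 1.94%) in HSNpt females. In males it took 0% to 0.609% (median 0.239%) in HDID1 and 0.616% to 3.86% (median 1.81%) in HSNpt, with every HSNpt male above every HDID1 male. Without the libraries that stood apart the median was 0.235% in the remaining 25 HDID1 mice and 1.82% in the remaining 31 HSNpt mice, and 28 of these 31 lay above the HDID1 maximum. The counts behind a single mouse's share are few, so counting error alone makes the share of 1 mouse uncertain.

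Because reads drawn toward the 3′ end lower the share of any 5′ exon, exon 1 was also set against exon 3, the next exon but one and the first with coding bases. There were 0 to 19 counts of exon 1 per 100 counts of exon 3 (median 4.69) in HDID1 mice and 8.06 to 84.6 (median 39.2) in HSNpt mice. On this scale 28 of 34 HSNpt mice lay above the HDID1 maximum. That maximum came from HDID1 female 6, with 21 counts of exon 3, and the HSNpt maximum from HSNpt female 2, with 13. Both were among the libraries with a high last exon share. Exon 3 itself held 1.41% to 7.56% (median 4.86%) of Cntfr counts in HDID1 and 1.21% to 5.97% (median 4.97%) in HSNpt, with ranges that overlap nearly whole.

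Exon 2 was also lower in HDID1, but with more overlap. It held 1 to 42 counts (median 4) in HDID1 mice and 5 to 98 counts (median 34.5) in HSNpt mice. Its share was 0.0620% to 2.58% (median 0.269%) in HDID1 and 0.346% to 6.52% (median 2.26%) in HSNpt. The ranges overlap more than for exon 1. A share above 1% was seen in 5 of 35 HDID1 mice and in 27 of 34 HSNpt mice.

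Those 5 HDID1 mice had exon 2 without a matching amount of exon 1. Female 7 had 37 counts of exon 2 and 3 of exon 1. Male 13 had 42 counts of exon 2 and 5 of exon 1, and male 4 had 35 and 2. Male 12 had 28 counts of exon 2 and 4 of exon 1, and male 10 had 24 and 5. In 29 of the 35 HDID1 mice and 19 of the 34 HSNpt mice the 2 exons lay within 4 counts of each other. Their counts were often equal in HDID1, where the median excess of exon 2 over exon 1 was 0, against 3.5 in HSNpt. Whether the same reads were counted in both exons was not tested, so exon 2 may not be a separate observation. Exon 2 exceeded exon 1 by 15 counts or more in 5 HDID1 mice, by 19 to 37, and in 9 HSNpt mice, by 24 to 50. In the other 30 HDID1 mice the excess was at most 8 counts and in the other 25 HSNpt mice at most 10, so mice of both lines fell on either side of a gap. These limits were set after the values were seen. Of the 5 HDID1 mice, female 7 and male 10 were among the libraries with a high last exon share.

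**Figure D2:**
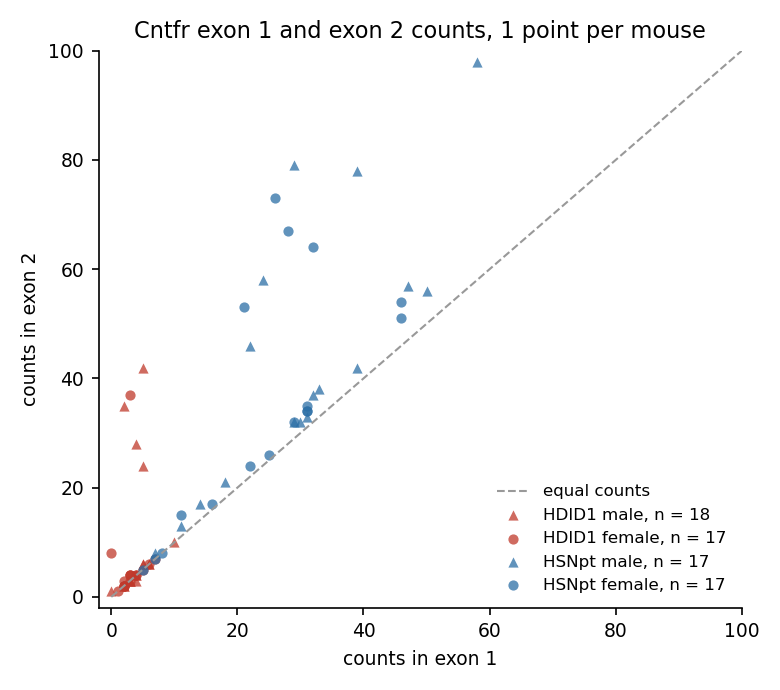
Counts in Cntfr exon 1 (horizontal) and exon 2 (vertical), 1 point per mouse, HDID1 red and HSNpt blue, triangles for males and circles for females, with a dashed line at equal counts. Most mice lie near the line; 5 HDID1 and 9 HSNpt mice lie 15 or more counts above it, and no HDID1 mouse has more than 10 counts of exon 1.

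The 2 annotated first exons upstream of exon 1 carried almost no counts. The one at chr4:41695796-41695935 held 5 counts over all HDID1 mice and 35 over all HSNpt mice, with at most 1 in any HDID1 mouse and 4 in any HSNpt mouse. The one at chr4:41696978-41697089 held 0 counts in HDID1 and 3 in HSNpt. Neither was higher in HDID1. A Cntfr transcript that begins at coding exon 5 (Cntfr-206) is also annotated. Exon 5 held 3.46% to 10.6% (median 8.28%) of Cntfr counts in HDID1, against a median of 8.51% and a maximum of 11.1% in HSNpt.

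Relative to the rest of the gene, the fitted natural log change of HDID1 over HSNpt was -2.01 for exon 1 and -1.57 for exon 2. It lay between -0.10 and 0.11 for the other 8 exons of Cntfr that passed the filter on low counts. All edgeR changes in exon usage are natural logs, unlike the log2 changes given for genes. Over the members, 43 exons passed (10 of Cntfr, 16 of Lifr, 17 of Il6st, none of Osmr). Because this contrast chose the genes, their changes are given as sizes only. Over all 120938 exons tested with edgeR, 0.49% were past an adjusted p of 0.05, and 0.447% were past it with a lower usage in HDID1.

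Counts over the whole of Cntfr lay in nearly the same range in both lines. Cntfr measured 67.5 to 126 CPM (median 86.7) in HDID1 mice and 66.1 to 113 CPM (median 85.4) in HSNpt mice. Means were 87.9 ± 12.5 CPM in HDID1 (SD, n = 35) and 87.3 ± 11.6 CPM in HSNpt (SD, n = 34), a fitted log2 difference of 0.01 with a standard error (SE) of 0.05.

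Lifr and Il6st, the signalling chains, also overlapped between the lines. Lifr measured 18.7 to 50.5 CPM (median 32.3) in HDID1 and 16.1 to 49.6 CPM (median 30.7) in HSNpt, with a log2 difference of 0.02 (SE 0.08). Il6st measured 50.8 to 154 CPM (median 101) in HDID1 and 50.9 to 149.8 CPM (median 101.9) in HSNpt, with a log2 difference of -0.01 (SE 0.08). For both genes each line's range covers nearly all of the other. Osmr was low, at 0.751 to 5.66 CPM (median 2.11) in HDID1 and 1.59 to 4.85 CPM (median 2.31) in HSNpt, with 11 to 103 counts per mouse in HDID1 and 29 to 107 in HSNpt. Its log2 difference was -0.20 (SE 0.11). It was 0.01 (SE 0.10) with 6 marker scores as covariates and -0.10 (SE 0.11) without the libraries that stood apart. Endothelial markers, of which 3 of 7 were lower and 0 higher in HDID1, summed to 85.9 to 238 CPM (median 132) in HDID1 and 71.2 to 269 CPM (median 159) in HSNpt. Over all 16867 genes tested, 5.98% were called higher and 5.73% lower in HDID1 at an adjusted p of 0.05.

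**Figure D3:**
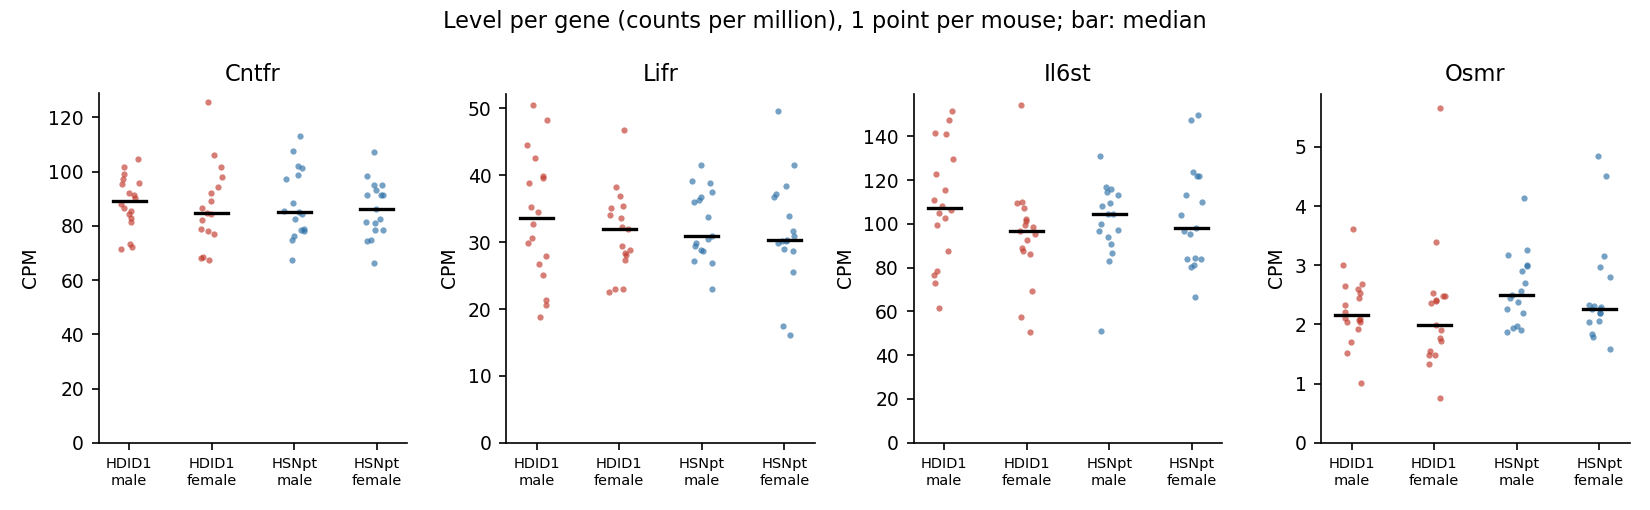
Level of each gene in CPM (vertical axes start at 0) by line and sex, 1 point per mouse, bar at the median. HDID1 and HSNpt overlap in all 4 genes, with Cntfr medians of 89.3 CPM in HDID1 males, 84.7 CPM in HDID1 females, 85.2 CPM in HSNpt males and 86.1 CPM in HSNpt females.

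Per kilobase of summed exon length, which takes in every listed exon whether used or not, Cntfr was the most abundant of the 4. Its median was 31.1 CPM per kilobase in HDID1 and 30.7 in HSNpt. Il6st followed at 9.13 in HDID1 and 9.18 in HSNpt, then Lifr at 3.12 in HDID1 and 2.97 in HSNpt, and Osmr at 0.174 in HDID1 and 0.191 in HSNpt. The Osmr length includes an exon of 5391 bases with 17 counts over all HDID1 mice and 34 over all HSNpt mice. Such exons lower a value per kilobase. No mouse's Cntfr value (24.3 to 45.2 in HDID1, 23.8 to 40.7 in HSNpt) overlapped the Il6st range (4.57 to 13.9 in HDID1, 4.59 to 13.5 in HSNpt), so the order of these 2 held in all 69 mice. Il6st and Lifr met only at the lower end of Il6st, where Lifr reached 4.89 in HDID1 and 4.80 in HSNpt. In whole tissue, fewer cells of a type and less RNA per cell cannot be told apart.

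In each receptor gene, Cntfr included, the last exon had a somewhat larger median share in HDID1. The last exon of Cntfr, chr4:41657498-41658152, took 17.2% to 48.7% (median 26.2%) in HDID1 and 21.1% to 48.3% (median 23.9%) in HSNpt. Lifr lies on chromosome 15 (plus strand) and its last exon, chr15:7190546-7197489, holds the end of the coding sequence and the 3′ untranslated sequence. That exon took 61.7% to 97.0% (median 71.5%) of Lifr counts in HDID1 and a median of 66%, up to 95.1%, in HSNpt. The last exon of Il6st, chr13:112503705-112510086 on the plus strand, took 60.3% to 98.4% (median 65.2%) in HDID1, with a median of 61.6% and a maximum of 95.5% in HSNpt. For Osmr (chromosome 15, minus strand) the last exon, chr15:6813577-6815928, had medians of 51.6% in HDID1 and 46.9% in HSNpt. Over genes with at least 5 listed exons, the share of exon counts in last exons had medians of 36.1% in HDID1 and 35.1% in HSNpt. The highest library stood at 57.5% in HDID1 and 55.6% in HSNpt. The part of this library measure in these small differences was not tested.

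Of the 5′ exons of the signalling chains, the first 4 Lifr exons of the exon table did not pass the filter on low counts and have no fitted change. The first of them, chr15:7129559-7129826, is the untranslated first exon of 3 of the 8 Lifr transcripts. It held 0% to 1.94% (median 0.893%) of Lifr counts in HDID1 and 0% to 2.76% (median 1.07%) in HSNpt, at 0 to 15 counts per mouse in each line, so the ranges overlap nearly whole. The first exon of 4 of the 10 Il6st transcripts, chr13:112464070-112464250, is untranslated. It held 0% to 1.19% (median 0.578%) of Il6st counts in HDID1 and a median of 0.818%, up to 1.25%, in HSNpt. Its fitted natural log usage change was -0.27. The changes of the 17 fitted Il6st exons lay between -0.27 and 0.13 and those of the 16 fitted Lifr exons between -0.37 and 0.06. The largest of these was 1 coding exon of Lifr, chr15:7175560-7175705, with a median share of 1.09% in HDID1 and 1.45% in HSNpt. In Osmr most exons held few counts per mouse, and its first exon had a median share of 0% in both lines.

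Sex did not enter the choice of the genes, and no difference in their levels was detected. Of the 4 genes, 0 passed for male against female in edgeR's quasi-likelihood test over all 16867 genes, 0 reached an unadjusted p of 0.05, and DESeq2 called none either. The log2 differences of males over females were 0.03 (SE 0.05) for Cntfr, 0.07 (SE 0.08) for Lifr, 0.08 (SE 0.08) for Il6st and 0.02 (SE 0.11) for Osmr, with adjusted p of 0.860, 0.745, 0.711 and 0.962. Of all genes 0.0949% passed. Of the 43 exons tested 0 passed, where 0.0389% of all exons did. The single exon with an unadjusted p under 0.05 was Cntfr exon 2 (unadjusted edgeR p = 0.00432, adjusted p = 1). Its natural log usage change was 0.29 in males over females. Its median share was 0.267% in HDID1 males and 0.269% in HDID1 females, and 2.26% in HSNpt males and in HSNpt females. Of the 5 HDID1 mice with more than 1% exon 2, 4 were male. For exon 1 the change was 0.14 (adjusted p = 1). Cntfr exons 1 and 2 did not pass the filter on low counts within HDID1 alone. Few counts there limit what these values can show about the sexes of HDID1.

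The line difference in the members was not shown to differ between the sexes. No gene in the whole table passed for the line by sex interaction (0%) in edgeR, with 849 of 16867 at an unadjusted p under 0.05, and DESeq2 called 1. None of the 4 members reached an unadjusted p of 0.05. The largest interaction was that of Il6st, 0.24 (SE 0.16, adjusted p = 0.978), where the log2 line difference was 0.11 (SE 0.11) in males and -0.13 (SE 0.11) in females. Of all exons 0.0496% passed for the interaction and of the 43 member exons 0 did, with Cntfr exon 2 alone at an unadjusted edgeR p under 0.05 (0.0307, adjusted p = 1). Exon 1 had an interaction of 0.14 on the natural log scale (adjusted p = 1). Exons 1 and 2 passed the filter on low counts only with the HSNpt mice included. An interaction needs counts in both lines, so for these exons it could hardly be assessed.

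Blood ethanol at the end of the drinking trial gave the other independent measure. Readings, whose unit is not stated, ran from 0 to 2.81 (median 1.5) in HDID1 and from 0 to 1.70 (median 0.256) in HSNpt, and 1 HDID1 and 16 HSNpt mice read 0. With sex in the model, no gene in the table passed (0%) in HDID1, with 1408 of 16294 at an unadjusted p under 0.05. In HSNpt no gene passed either (0%), with 479 of 16239. DESeq2 also called 0 in each line. Per unit of the reading, Cntfr differed by 0.02 on the log2 scale (SE 0.05, adjusted p = 0.875) in HDID1 and by 0.09 (SE 0.06, adjusted p = 0.956) in HSNpt. For Lifr these were 0.08 (SE 0.08) in HDID1 and -0.03 (SE 0.09) in HSNpt, for Il6st 0.07 (SE 0.08) in HDID1 and -0.01 (SE 0.09) in HSNpt, and for Osmr 0.16 (SE 0.12) in HDID1 and 0.10 (SE 0.12) in HSNpt. In HDID1 the adjusted p of these 3 genes lay between 0.562 and 0.684, and in HSNpt between 0.956 and 0.989.

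No relation of the exon 1 share to the reading was detected within either line. In 35 HDID1 mice Pearson's r was 0.03 (permutation p = 0.884) and Spearman's rho 0.07 (permutation p = 0.688), and r was 0.07 without the 2 mice farthest from the median reading. By sex, r was -0.28 in the 18 HDID1 males (permutation p = 0.261) and 0.30 in the 17 HDID1 females (permutation p = 0.249), and without the 2 farthest mice of each -0.45 in males and 0.06 in females. The difference between the sexes was not tested. In 34 HSNpt mice r was -0.13 (permutation p = 0.455) and rho -0.13 (permutation p = 0.448), and r was -0.27 without the 2 farthest mice. By sex, r was -0.09 in the 17 HSNpt males (permutation p = 0.723) and -0.22 in the 17 HSNpt females (permutation p = 0.391). Adjusted over the 4 two-sided tests on all mice of a line every p was 0.884. Among the 18 HSNpt mice with a reading above 0, r was 0.21 (permutation p = 0.404), and -0.02 without the 2 farthest mice. In exon usage 0 of 31 member exons passed in HDID1, where 0.00177% of all exons did, and 0 of 36 in HSNpt, where 0.0325% did, with 1 Lifr exon at an unadjusted edgeR p under 0.05 in each line. For Cntfr exon 1 in HSNpt the natural log usage change per unit was -0.15 (adjusted p = 0.960). In HDID1 exon 1 had too few counts to enter the fit.

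**Figure D4:**
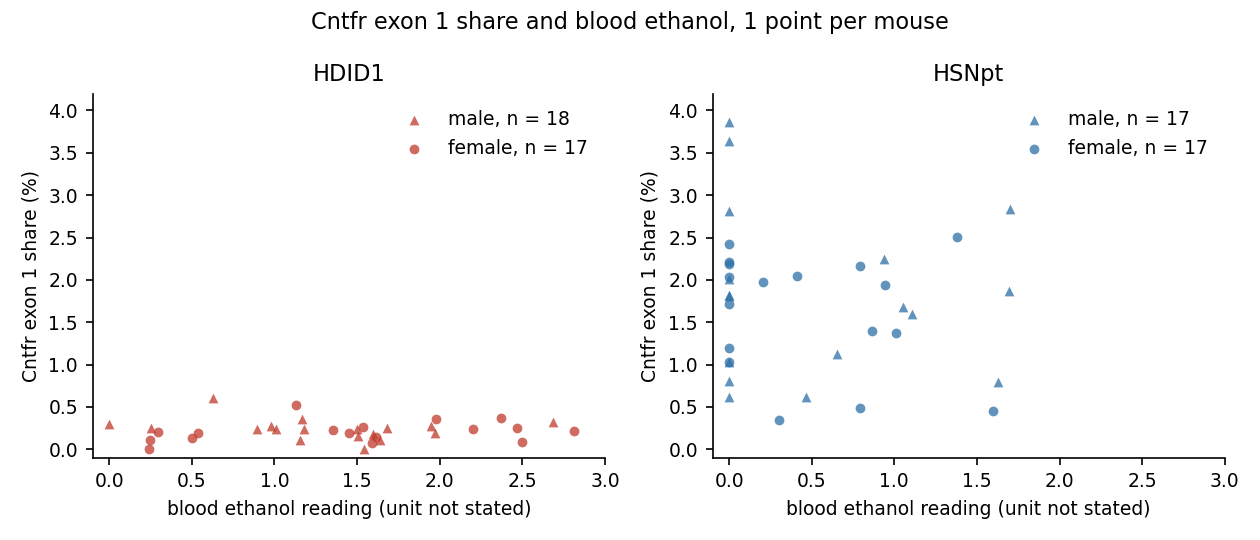
Cntfr exon 1 share (percent, vertical) against the blood ethanol reading (horizontal, unit not stated), HDID1 left and HSNpt right, 1 point per mouse, triangles for males and circles for females. HDID1 shares stay at or under 0.609% over the whole range of readings up to 2.81, and HSNpt shares spread from 0.346% to 3.86% with 16 mice at a reading of 0.

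Across mice the levels of the members did not move as a unit. With the 4 group means removed, the log2 levels of Lifr and Il6st correlated at r = 0.74 over 69 mice, those of Lifr and Osmr at 0.43 and of Il6st and Osmr at 0.43. Cntfr stood apart, at 0.13 with Lifr, 0.07 with Il6st and -0.18 with Osmr. The same libraries and their composition underlie all of these values, which are descriptions. Il6st was lower where the last exon share of the library was higher (r = -0.74), as were Osmr (-0.49) and Lifr (-0.46), and for Cntfr this was 0.18. Astrocyte markers correlated with Cntfr (0.54), Il6st (0.48) and Lifr (0.47), and stood at -0.08 with Osmr. Cntfr also went with markers of oligodendrocytes (0.65), of their precursors (0.50) and of the hypothalamus (0.50). Lifr ran against the spiny neuron markers (-0.55). Microglia markers ran against Il6st (-0.67), Lifr (-0.57) and Osmr (-0.49), and stood at 0.20 with Cntfr. Osmr went with the endothelial (0.59) and mural cell markers (0.54), and Lifr was at 0.39 and 0.48 with these. The exon 1 usage of Cntfr was at -0.11 with the level of Cntfr itself and at -0.37 with the last exon share.

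The genes whose level was most like that of each member, among 15284 genes with at least 1 CPM on average, differed between members. For Cntfr they were Zfp385a (r = 0.80), Panx2 (0.78), Plod1 (0.77), Iglon5 (0.76) and Hcn2 (0.76). For Lifr they were St8sia1 (0.90), Ptprd (0.89), Ppargc1a (0.89), Dlc1 (0.87) and Apbb2 (0.86). For Il6st they were Slc38a1 (0.95), Sema6d (0.93), Heatr5a (0.92), Hspa4l (0.91) and, in the opposite direction, Matk (-0.91). For Osmr they were Ptprb (0.72), Abcb1a (0.72), Flt1 (0.71), Itga1 (0.71) and Psme4 (0.71), of which Ptprb, Abcb1a and Flt1 are known from blood vessel endothelium. The usage of Cntfr exon 1 had weaker likenesses. The genes nearest to it were D930019O06Rik (0.54), Dym (-0.48), Samd12 (0.46), Phf14 (0.46) and Ism1 (0.46). Among 114230 exons of other genes the nearest lay in Orc4 (0.57), Trip4 (0.57), Srr (0.56), Hook3 (0.56) and Col18a1 (-0.55), all on chromosomes other than 4. These are the largest of very many correlations and were not tested. Exon 1 held only 0 to 10 counts per HDID1 mouse, which makes its usage uncertain.

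The rest of the pathway is given from lists of genes that are no members. They were tested for line, though the lists were chosen with earlier results of these data known, which limits what these tests can show. Of the IL-6 family ligands 4 of 10 passed the filter on low counts, and 0 of these 4 differed between the lines in edgeR at an adjusted p of 0.05, with 1 at an unadjusted p under 0.05, at a median log2 change of 0.04 against 0.01 over all genes. That one was Ctf1, which encodes cardiotrophin 1, another ligand of the LIF receptor and gp130: 1.61 ± 0.741 CPM in HDID1 and 1.28 ± 0.501 CPM in HSNpt (SD, n = 35 and 34), log2 change 0.32 (SE 0.14, adjusted p = 0.121). The 6 ligand genes under the filter had a median of at most 5 counts per mouse in each line, among them Il6 (0 to 3 counts per mouse in each line), Osm (0 to 5 in each line) and Il31 (0 in all mice). Clcf1, which encodes another ligand of the CNTF receptor, stood at -0.10 (SE 0.16, adjusted p = 0.694).

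Of the 4 other receptors of the family 0 differed at an adjusted p of 0.05, with 1 at an unadjusted p under 0.05, and their median change was -0.01. That one was Il6ra, the alpha chain for interleukin 6, at 3.36 ± 1.08 CPM in HDID1 and 4.01 ± 1.08 CPM in HSNpt (SD, n = 35 and 34), log2 change -0.27 (SE 0.12, adjusted p = 0.117). Il11ra1, the alpha chain for interleukin 11, begins 2900 bases beyond the 5′ end of Cntfr and is transcribed away from it. It measured 8.10 to 44.5 CPM (median 13) in HDID1 and 9.01 to 36.3 CPM (median 13.1) in HSNpt, log2 change 0.03 (SE 0.12, adjusted p = 0.879). Mice carry near-identical copies of Il11ra1, and its value is uncertain for that reason.

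Of the 12 JAK-STAT and adaptor genes 0 differed in edgeR at an adjusted p of 0.05, with 3 at an unadjusted p under 0.05, and their median change was -0.05. The smallest p was that of Jak2, a kinase bound to gp130, at 72.2 ± 14.7 CPM in HDID1 and 80.7 ± 13.4 CPM in HSNpt (SD, n = 35 and 34), log2 change -0.16 (SE 0.07, adjusted p = 0.109). Stat3, the main transducer, measured 59.6 ± 8.47 CPM in HDID1 and 61.4 ± 7.89 CPM in HSNpt (SD, n = 35 and 34), log2 change -0.05 (SE 0.05, adjusted p = 0.554).

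Of the 11 inhibitors 1 was higher and 2 were lower in HDID1, where 5.98% of all genes tested were higher and 5.73% lower. Pias3, which inhibits the binding of STAT3 to DNA, measured 20.2 ± 4.2 CPM in HDID1 and 16.5 ± 3.47 CPM in HSNpt (SD, n = 35 and 34), log2 change 0.28 (SE 0.07, adjusted p = 0.00582). The HSNpt median was exceeded in 28 of 35 HDID1 mice. Ptpn2, a phosphatase that acts on JAK and STAT proteins, was lower at -0.12 (SE 0.04, adjusted p = 0.0214). Ptpn6, a phosphatase of blood-derived cells, was lower at -0.24 (SE 0.08, adjusted p = 0.0425). Microglia markers, of which 2 of 7 were lower and 0 higher in HDID1, summed to 311 to 768 CPM (median 415) in HDID1 and 317 to 708 CPM (median 443) in HSNpt, and their part in the Ptpn6 value was not tested. Socs3, the feedback inhibitor that binds gp130, did not pass, at 0.23 (SE 0.11, adjusted p = 0.173). Of 8 alternative analyses Ptpn2 passed in 6, Pias3 in 5 and Ptpn6 in 3. With marker scores as covariates the log2 changes were 0.06 for Pias3, -0.12 for Ptpn2 and -0.16 for Ptpn6, and each of these calls was lost.

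Of the 15 listed STAT3 target genes 12 were tested, and 2 were higher and 2 lower in HDID1, again beside 5.98% higher and 5.73% lower over all genes. Serpina3n, an acute phase protease inhibitor of reactive astrocytes, measured 9.25 to 55 CPM (median 23.5) in HDID1 and 9.92 to 110 CPM (median 56.5) in HSNpt. All 35 HDID1 mice lay below the HSNpt median, though the ranges overlap, and the log2 change was -1.10 (SE 0.17, adjusted p = 3.45e-06). It belongs to a cluster of similar genes between which reads could be split. Pim1, a kinase gene, was lower at -0.27 (SE 0.07, adjusted p = 0.00887). Mcl1 and Bcl2l1, which encode proteins that hold back apoptosis, were higher at 0.17 (SE 0.04, adjusted p = 0.000891) and 0.12 (SE 0.04, adjusted p = 0.0403). Gfap, an astrocyte filament gene, did not pass, at 152 ± 75.2 CPM in HDID1 and 143 ± 64.7 CPM in HSNpt (SD, n = 35 and 34), adjusted p = 0.744. Of 8 alternative analyses Serpina3n passed in 8, Pim1 in 7, Mcl1 in 6 and Bcl2l1 in 2. With marker scores as covariates the calls of Mcl1 (log2 change 0.10) and Bcl2l1 (0.08) were lost. Those of Serpina3n (-1.46) and Pim1 (-0.36) were kept.

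**Figure D5:**
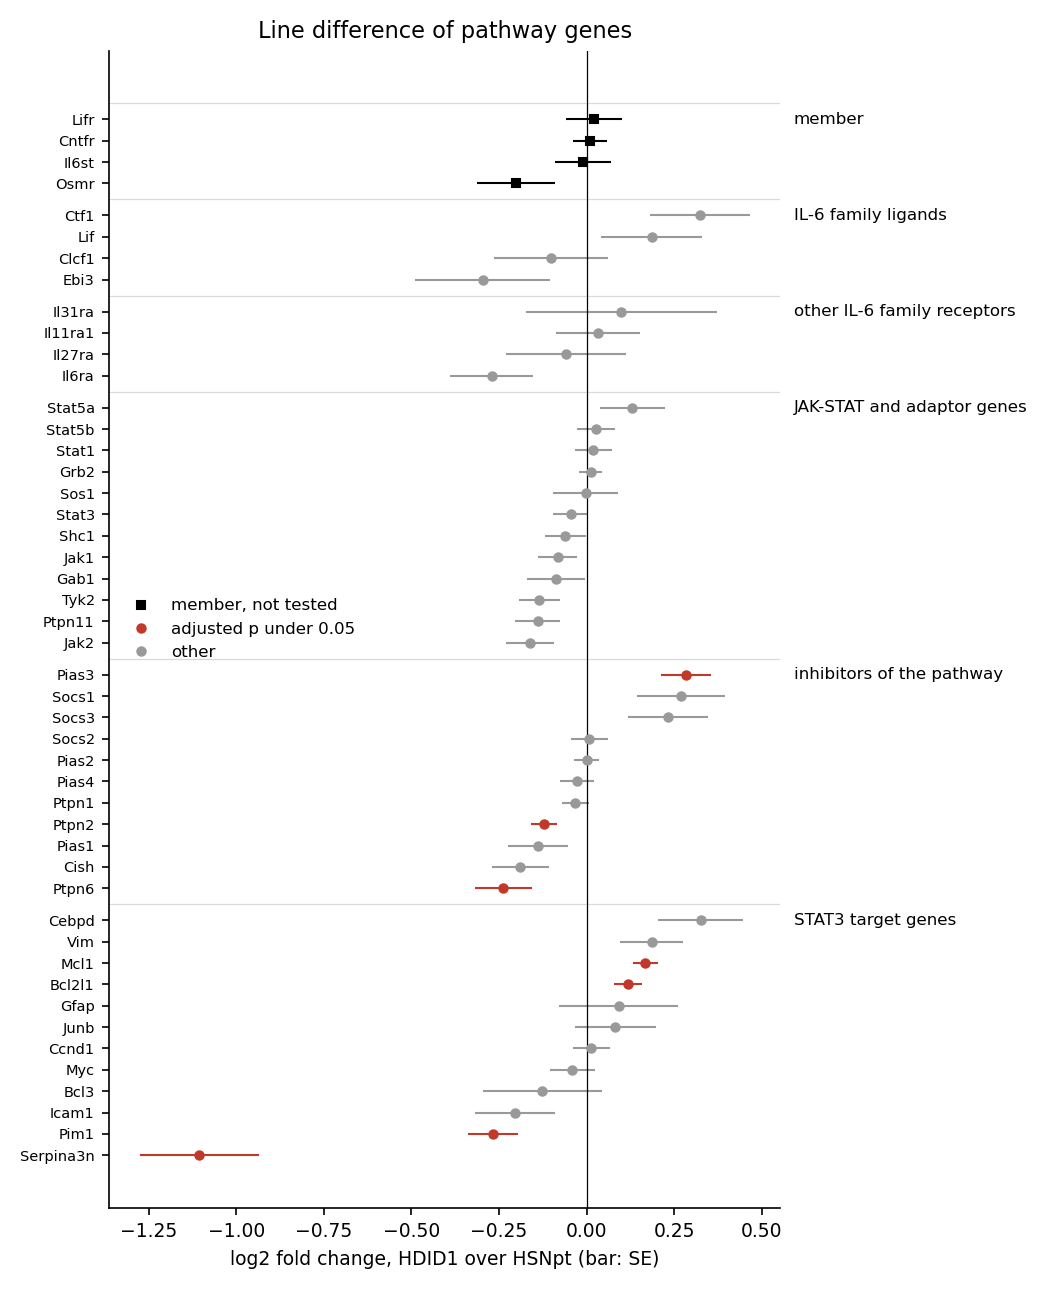
Fitted log2 fold change of HDID1 over HSNpt (horizontal) with its SE for the 4 members (black squares, not tested) and the tested genes of 5 pathway lists (circles, red where the adjusted p was under 0.05). Serpina3n lies farthest from 0 at -1.10, and the members lie between -0.20 and 0.02.

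Genes around Cntfr were tested for a line difference in level. Within 500000 bases 49 genes are listed, of which 21 were tested, and 3 were higher and 2 lower in HDID1, against 5.98% higher and 5.73% lower among all genes. Their median log2 change was 0.04. Dnaic1, a gene of motile cilia, was higher at 0.49 (SE 0.13, adjusted p = 0.00820), 1110017D15Rik at 0.54 (SE 0.19, adjusted p = 0.0469) and AI464131 at 0.12 (SE 0.04, adjusted p = 0.0284). Ccl27a, a chemokine gene, was lower at -0.99 (SE 0.26, adjusted p = 0.00730) and Fam219a at -0.15 (SE 0.05, adjusted p = 0.0301). Ependymal markers, which come from ciliated cells and of which 1 of 5 was higher in HDID1, summed to a median of 38.9 CPM in HDID1 and 23.8 CPM in HSNpt, and their part in the Dnaic1 and 1110017D15Rik values was not tested. With marker scores as covariates the log2 changes were 0.16 for Dnaic1 and 0.04 for 1110017D15Rik, and both calls were lost. The call of Fam219a, at -0.13, was lost as well, and those of Ccl27a and AI464131 were kept. Of 8 alternative analyses Ccl27a passed in 7, Dnaic1 in 4, AI464131 and Fam219a in 3 each and 1110017D15Rik in 2. Ccl27a overlaps the end of Il11ra1 on the other strand and has near-identical copies, and Fam219a overlaps an antisense gene. Their values are uncertain for these reasons.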

How the data were processed

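Tables of gene and exon read counts in whole numbers, unnormalized and with a column for each mouse, were deposited by the authors. The submitters' processing notes name CASAVA, FastQC, STAR, bedtools and edgeR with build mm10. Sources used here give neither their versions nor the use of strand in counting. Libraries were poly-A selected and stranded, per the labels' protocols. Sex and line in the headers matched the labels in 69 of 69 libraries. The genes and the lists were chosen with earlier results of these data known.

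Exon shares are an exon's count over the sum of its gene's exons in the same mouse, with at least 10 counts per gene. The 16867 genes that passed filterByExpr were scaled by TMM and fitted with edgeR 4.0.16 (glmQLFit, glmQLFTest) on 4 line and sex means over all mice. Exon usage was tested with diffSpliceDGE on 120938 exons in 12299 genes, leaving out 281 exons under date-like names. Its changes are natural logs, while those of limma are log2. P-values were adjusted by Benjamini-Hochberg over all features. An SE is the log2 change over the square root of F. Blood ethanol was a linear term per line beside sex. Permutation tests were two-sided with 100000 resamples. Likeness used log2 CPM (prior count 2) and log2 exon ratios (prior count 0.5). A marker score is the mean centred log2 CPM of a list. Libraries over 3 median absolute deviations low in spiny neuron score, or high in hypothalamus score, choroid plexus score or last exon share, stood apart. Alternatives were RLE scaling, no filter, DESeq2 1.42.0, limma 3.58.1, 6 marker scores as covariates and subsets of mice. The scripts were tested on simulated data.

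Genes were named by a rule: the members, every pathway gene that passed or else that of smallest p, and the 5 nearest by likeness. Neighbours are named where they passed. Clcf1, Il6, Osm, Il31, Stat3, Socs3, Gfap and Il11ra1 were chosen after their values were seen. A gene of the ligand list is not reported here. Replicates are single mice, whose numbers follow sample order and pair nothing.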

Additional observations from a re-analysis of the deposited data

How the results depend on the processing

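The HDID1 minus HSNpt difference of the median exon 1 shares, -1.58 percentage points, lay between -1.73 and -1.57 under the other filters, denominators and subsets of mice on that scale, and was -34.5 in counts per 100 counts of exon 3, which is another scale. The fitted usage change of exon 1 lay between -2.65 and -1.94 over 5 alternatives. This range mixes scales, natural log for the edgeR fits and log2 for limma, so it does not measure the effect of processing alone. The 1975 genes called for line (1008 higher, 967 lower) became 562 with 6 marker scores as covariates (232 higher, 330 lower) and 980 without the libraries outside the marker limits. They became 1072 without those outside the marker or last exon limits (424 higher, 648 lower), 82 in females alone and 1079 in males alone. In exon usage the 593 exons called for line became 216 in females and 158 in males, the 47 for sex became 109 without the libraries that stood apart, and the 60 for the interaction became 12 with limma. DESeq2 called 1 gene for the interaction, and 1 gene passed for blood ethanol in HSNpt without the filter. Fewer mice entered the subsets; otherwise the cause was not tested. No alternative brought the level of a member, or the usage of Cntfr exon 1, past the threshold for sex, interaction or blood ethanol. Of the calls of 12 named pathway and neighbour genes in 8 alternatives 40 were lost and none reversed. Subsets by last exon share, the exon 3 scale, single sexes for the share and readings above 0 were chosen after seeing the data. Exons of a few counts per mouse are limited by counting error. No paired analysis was possible because replicate numbers are only the order of the samples.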
